A study of Mus musculus with 2 samples.

Results

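The genes described here build the machinery of excitation-contraction coupling in skeletal muscle, at the triad where a transverse tubule meets the sarcoplasmic reticulum. They are 10 genes chosen by name, Ryr1, Ryr3, Cacna1s, Cacnb1, Cacng1, Jph1, Jph2, Stac3, Trdn and Jsrp1, out of 23458 genes that the array probes could be matched to. Any noncontrol probe whose RefSeq accession belongs to one of these genes was taken, which gave 12 of 56596 probes. Jsrp1 and Ryr3 had a pair of probes each, and the other 8 genes had 1 probe.

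RNA was measured from pools of single muscle fibres on 2 one-colour arrays, 1 pool and 1 array per fibre type. All fibres came from 8 male mice aged 6 to 8 weeks that were heterozygous (G/+) for GFP-Myh7, a reporter joined to the slow myosin heavy chain gene, so this allele was shared by both pools. The fast pool held 4447 fibres without GFP from the extensor digitorum longus (EDL), and the slow pool held 1659 GFP-positive fibres from the soleus. The tissue label of the slow pool names the EDL, but the soleus is given by its source and by the protocol for treatment, and was used here. Fibre type, GFP selection and muscle of origin thus differ together and cannot be told apart. With no replicate there is no spread between animals, no test and no p-value, and a difference of at least 2-fold was used as a rule of size.

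In a skeletal muscle fibre, an action potential travels down the transverse tubules and moves the voltage sensor of the dihydropyridine receptor, the L-type calcium channel of the tubule. This sensor opens the ryanodine receptor of the facing sarcoplasmic reticulum through protein contact, and calcium flows out to the contractile filaments. Junctophilins hold both membranes together, and triadin and other junctional proteins tie the calcium store to the release channel.

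The coupling genes were mostly at higher levels in fast fibres. All 9 genes measured on both arrays were higher in the fast pool, by 1.26-fold to 6.10-fold, except that the smallest difference, that of Jsrp1, turned sign under 3 of 9 scalings. The release channel gene Ryr3 was above background in the slow pool only. Cacng1, Jph1 and Jph2 passed 2-fold towards the fast pool, which is 3 of 10 genes against 14.3% of the 14647 genes above background in either pool. Ryr3 passed it towards the slow pool, 1 of 10 genes against 10.7%. The remaining 6 genes lay within 2-fold. At a 1.5-fold rule, 8 of 10 genes were higher in fast fibres against 23.2% of all genes, and 1 of 10, again Ryr3, in slow fibres against 21.1%. This rule was applied only under the scaling used for the values given here. Under spike-in scaling Ryr1, Cacna1s, Cacnb1, Stac3 and Trdn lay within 1.5-fold, at log2 differences of -0.42, -0.57, -0.49, -0.24 and -0.34. Any excess in fast fibres, however small, was seen for 47.1% of the 12846 genes measured on both arrays. The median slow minus fast difference of the 9 genes was -0.91 on the log2 scale, and that of all genes measured on both arrays was 0.05.

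Levels are processed signals in array units, and differences are log2 slow minus fast after each array was divided by its 75th percentile, which was 182.7 for the fast array and 196.0 for the slow array. Signals of different probes depend on the probe and are not compared with each other. For the 9 genes measured on both arrays, the error given by the extraction software was close to 1 part in 10 of each signal. That makes an SD of 0.20 for a log2 difference, and covers only the array measurement. The fraction was nearly the same for all 9 genes, so a difference given in software SDs mostly restates its log2 value. For probes printed many times, the spots of a probe scattered by a median SD of 0.05. Because equal RNA amounts were labelled, 0.1 µg per pool, a level is a share of the RNA of a pool, and fewer cells of a type cannot be told apart from less RNA per cell.

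**Figure D1:**
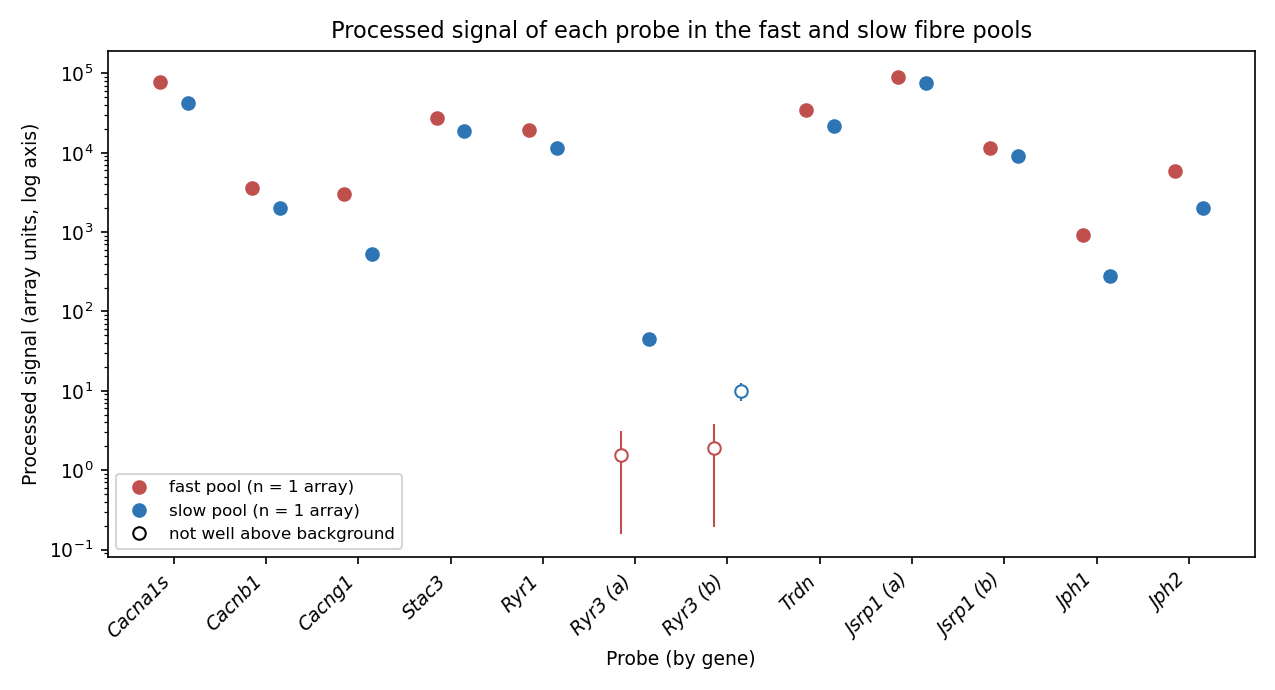
Processed signal of each of the 12 probes on a log axis, with the fast pool in red and the slow pool in blue, 1 array each; bars are the software error, cut off before they reach 0 and hidden by most points. The fast point lies above the slow point for every probe except both Ryr3 probes, whose open symbols mark signals not well above background (a marks the probe used in the text, b the other probe).

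All 5 slow fibre markers (Myh7, Tnni1, Tnnc1, Tnnt1 and Myl3) exceeded 2-fold in favour of the slow pool, and all 7 fast fibre markers (Myh4, Myh1, Myh2, Tnni2, Tnnc2, Tnnt3 and Actn3) in favour of the fast pool, or 6 of 7 under quantile normalization and spike-in scaling. Markers of endothelium, fibroblasts and macrophages moved in the same direction as the coupling genes. Among 5 endothelial markers 4 passed 2-fold towards the fast pool, as did 5 of 5 fibroblast markers and 2 of 3 measured macrophage markers. Under the 9 scalings the endothelial count was 3 or 4 and the fibroblast count 3 to 5. The summed level of these lists, which weighs bright probes most, in units of the 75th percentile, was 15.01 against 2.78 for endothelium, 141 against 34.0 for fibroblasts and 15.8 against 4.12 for macrophages, fast pool first. The macrophage marker Adgre1 stayed at background in these pools. Satellite cell markers were within 2-fold for both members measured, with Myf5 at background in both pools. The part of these cells in the differences of the coupling genes was not tested.

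The voltage sensor complex of the transverse tubule was represented by Cacna1s, Cacnb1 and Cacng1, with the adaptor Stac3. Cacna1s encodes the pore-forming subunit that holds the voltage sensor. Its signal was 78589 in the fast pool and 42251 in the slow pool. The log2 difference of -0.997, a ratio of 1.996, put it just short of the 2-fold rule, and it was past the rule under 3 of the 9 scalings compared. Cacnb1, whose cytosolic beta subunit carries the channel to the membrane and takes part in coupling, had signals of 3548 and 2021, fast pool first. It was 1.88-fold higher in fast fibres, a difference of -0.91, and past 2-fold under 1 of 9 scalings.

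Cacng1 encodes the gamma subunit, a membrane protein of the skeletal muscle channel that restrains its calcium current. Its signal was 3040.2 in the fast pool and 534 in the slow pool, and it was 6.10-fold higher in fast fibres, at a log2 difference of -2.61. No other of the 9 genes was this far apart. Stac3, an adaptor that binds the channel and is required for coupling, had signals of 27615 and 18709. It was 1.58-fold higher in fast fibres, with a difference of -0.66. Within this complex the pore subunit, the beta subunit and the adaptor therefore lay between 1.58-fold and 1.996-fold, and the gamma subunit stood apart from them.

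Promoter windows, 300 bases running from 250 before to 50 after a start site, were present in the RefSeq table of build GRCm38.p6 for 4 of the 10 genes. They are shown because these genes cover the channel (Cacna1s, Cacnb1), the release channel (Ryr1) and the membrane bridge (Jph2), and all were higher in the fast pool. Capitals mark E-boxes, the letters CANNTG, to which myogenic factors such as MyoD bind. The windows, 5′ to 3′, are Cacna1s on the plus strand at chr1:136052561-136052860 and, on the minus strand, Ryr1 at chr7:29125102-29125401, the upstream one of the pair listed for Jph2 at chr2:163397944-163398243, and both Cacnb1 windows, upstream at chr11:98022578-98022877 and downstream at chr11:98018323-98018622.
Cacna1s: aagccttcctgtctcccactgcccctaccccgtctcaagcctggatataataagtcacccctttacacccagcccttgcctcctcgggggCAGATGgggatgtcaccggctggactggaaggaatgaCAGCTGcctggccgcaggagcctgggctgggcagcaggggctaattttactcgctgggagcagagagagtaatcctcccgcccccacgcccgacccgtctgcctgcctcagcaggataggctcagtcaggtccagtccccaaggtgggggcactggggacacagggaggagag
Ryr1: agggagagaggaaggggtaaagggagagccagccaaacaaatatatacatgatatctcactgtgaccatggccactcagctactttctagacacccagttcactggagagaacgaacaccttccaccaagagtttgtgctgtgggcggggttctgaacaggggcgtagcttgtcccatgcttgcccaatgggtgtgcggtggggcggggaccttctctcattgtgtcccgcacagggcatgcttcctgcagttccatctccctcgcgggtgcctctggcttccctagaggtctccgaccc
Jph2: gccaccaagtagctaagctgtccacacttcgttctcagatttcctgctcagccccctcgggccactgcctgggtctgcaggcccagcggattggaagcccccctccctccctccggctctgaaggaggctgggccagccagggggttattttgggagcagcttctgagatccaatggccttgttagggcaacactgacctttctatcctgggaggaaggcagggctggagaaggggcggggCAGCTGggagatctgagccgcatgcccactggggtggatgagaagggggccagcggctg
Cacnb1 upstream: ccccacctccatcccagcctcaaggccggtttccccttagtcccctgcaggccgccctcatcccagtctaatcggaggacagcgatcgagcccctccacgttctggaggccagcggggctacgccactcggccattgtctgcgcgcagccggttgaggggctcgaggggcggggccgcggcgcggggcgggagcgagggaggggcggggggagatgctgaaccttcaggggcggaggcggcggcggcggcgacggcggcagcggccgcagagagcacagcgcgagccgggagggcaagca
Cacnb1 downstream: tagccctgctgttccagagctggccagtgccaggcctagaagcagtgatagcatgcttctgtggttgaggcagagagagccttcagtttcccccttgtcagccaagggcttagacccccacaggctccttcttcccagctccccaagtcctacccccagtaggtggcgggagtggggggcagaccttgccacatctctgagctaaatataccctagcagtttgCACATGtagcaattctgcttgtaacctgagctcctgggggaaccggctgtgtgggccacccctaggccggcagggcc

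The Cacna1s window held 2 E-boxes, at positions -160 and -123 from the start site, and 1 match to the MCAT letters CATTCC at -130. Jph2 held 1 E-box at -9, and its other window shares 280 bases with the one shown. The Cacnb1 windows differed in kind. The upstream one held no E-box but 5 matches to the GC box GGGCGG, with 73.7% G and C, whereas the downstream one held 1 E-box at -27 and no GC box, with 59.3% G and C. Ryr1 had no E-box and 2 GC boxes. Cacna1s and the Jph2 window shown also held 1 GC box each, at -46 and -17. Searched on both strands, 72.3% of all 32851 windows in the table held an E-box, 35.7% a GC box and 14.7% an MCAT match. None of the 6 windows matched the TATA box TATAAA, or the MEF2 or CArG patterns, which 13.6%, 3.19% and 1.63% of all windows matched, and no E-box overlapped another motif searched. These are matches of letters, and binding was not measured.

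Of the release channels, Ryr1 was higher in the fast pool but within 2-fold. Ryr3 was above background in the slow pool only, by its brighter probe alone. Ryr1 encodes the ryanodine receptor that the voltage sensor opens in adult skeletal muscle. Its signal was 19177 in the fast pool and 11462 in the slow pool, and it was 1.79-fold higher in fast fibres, at a difference of -0.84. Ryr3 encodes an isoform of developing muscle that persists in a few adult muscles and is not gated directly by the voltage sensor. By its brighter probe it had a signal of 1.57 in the fast pool, not well above background, and of 44.8 in the slow pool, 9.22 times the software error.

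Ryr3 was thus at least 5.78-fold higher in slow fibres, a bound taken against 7.21, the lowest fast-array signal well above background. The median pixel intensity of this spot was 34.0 against a local background of 29.0 on the fast array and 81.0 against 26.0 on the slow array. Its other probe read 1.92 and 10.01, not well above background in either pool. After normexp background correction the bound fell within 2-fold, at log2 values of 0.75 and 0.81 with the 75th percentile and quantile normalization, and it was between 2.42 and 2.95 under the other 7 scalings. The direction of such a bound could hardly turn, since Ryr3 was above background in the slow pool only. That it held under all 9 is therefore no support. Ryr2, the cardiac isoform, was not well above background by either of its probes in either pool.

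Because Ryr3 is also expressed in neurons and smooth muscle, markers of both were read beside it. All 4 smooth muscle markers were within 2-fold, Myh11 at -0.64, Cnn1 at -0.59, Acta2 at -0.13 and Smtn at 0.71, the last past 2-fold under spike-in scaling. Their summed level was 791 in the fast pool and 742 in the slow pool, of which Acta2 alone made up 96.6% and 94.2%. The Acta2 probe in this sum read 139689 in the fast pool and 136890 in the slow pool. Another Acta2 probe read only 1554 and 1653, fast pool first, a difference of -0.01. The remaining Acta2 probe was dimmer still, with a difference of -0.14. The sum thus mostly restates 1 bright probe, and how far that probe reads smooth muscle was not tested. Of 4 neuronal markers, Snap25 and Tubb3 were within 2-fold, Rbfox3 was above background in the fast pool only, and Syt1 in neither. Their summed level, 8.54 in the fast pool and 11.2 in the slow pool, was 97.1% and 98.5% Snap25. The other Snap25 probe read 1.45 in the fast pool and 1.77 in the slow pool, not well above background in either. Among cardiac markers Myh6 was 8.19-fold higher in the slow pool, Nppa and Nppb were above background in the fast pool only, and Myl7 in neither. Their summed level was 0.99 in the fast pool and 6.86 in the slow pool, of which Myh6 alone made up 83.9% and 99.0%, so it mostly restates Myh6. The part of such cells in the Ryr3 signal was not tested.

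Of the junctional proteins of the reticulum, Trdn encodes triadin, which links calsequestrin to the ryanodine receptor. Its signals were 34512 in the fast pool and 21891 in the slow pool, a 1.69-fold excess in fast fibres and a difference of -0.76. Jsrp1 encodes the junctional protein JP-45, which contacts the voltage sensor and calsequestrin. The brighter Jsrp1 probe read 89951 and 76408, and the other 11464 and 9154, fast pool first. The differences were -0.34 and -0.43, which are ratios of 1.26 and 1.34, and the first amounts to -1.65 software SDs. The Jsrp1 difference was close to 0 and turned sign, to 0.09 in each case, under quantile normalization, normexp with quantile normalization and spike-in scaling, so its direction depends on the scaling.

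The junctophilins Jph1 and Jph2, which anchor the reticulum to the transverse tubule, were both past 2-fold. Jph1, the junctophilin typical of skeletal muscle, had a signal of 931 in the fast pool and 281 in the slow pool, and was 3.55-fold higher in fast fibres with a difference of -1.83. Jph2, which is shared with the heart, had signals of 5966 and 1994 and was 3.21-fold higher in fast fibres with a difference of -1.68. Each had 1 probe, and their differences amounted to -8.95 and -8.25 software SDs. Cacng1, Jph1 and Jph2 were past 2-fold under all 9 scalings, at differences no nearer to 0 than -2.19, -1.41 and -1.26. Their relative Jph4, of the tubule and triad list below, was level, at 100.1 in the fast pool and 97.4 in the slow pool, a difference of -0.14. The other Jph4 probe and both Jph3 probes were not well above background in either pool.

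**Figure D2:**
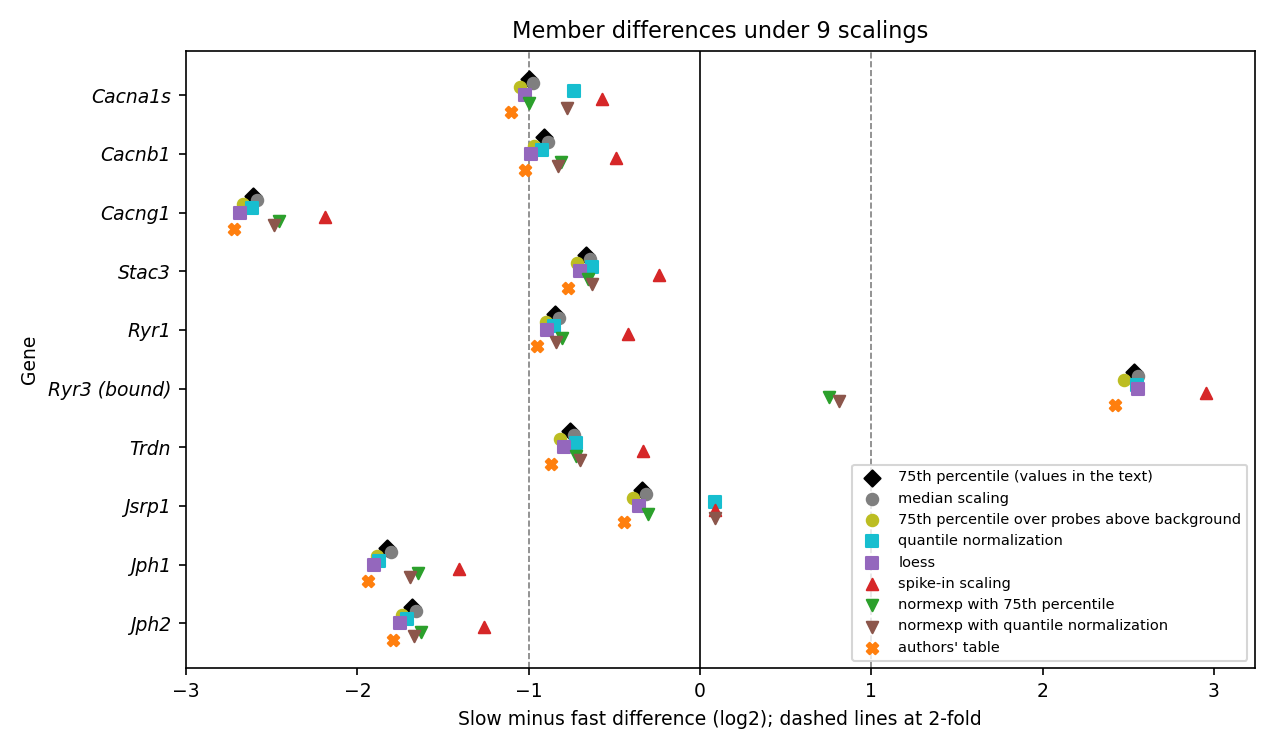
Slow minus fast log2 difference of each gene (horizontal axis) under the 9 scalings of the arrays, 1 symbol per scaling, with dashed lines at 2-fold; Ryr3 is plotted at its bound. Cacng1, Jph1 and Jph2 lie left of the 2-fold line with every symbol, Cacna1s has symbols on both sides of it, and Jsrp1 has 3 symbols just right of 0.

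The genes can also be read against Ryr1, which cancels any constant factor between the arrays. Of the 8 other genes measured on both arrays, 4 had a difference within 1 software SD of that of Ryr1, where the SD of such a comparison is 0.29. They were Cacna1s at -0.15, Cacnb1 at -0.07, Stac3 at 0.18 and Trdn at 0.09 relative to Ryr1. Cacng1, Jph1 and Jph2 lay more than 2 SDs beyond Ryr1 towards the fast pool, at -1.77, -0.98 and -0.84. These values correspond to a fast over slow ratio 3.40, 1.98 and 1.79 times that of Ryr1. Jsrp1 lay 0.51 towards the slow pool. The SD is that of the array measurement alone, so these values do not show that any of the genes share a ratio.

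**Figure D3:**
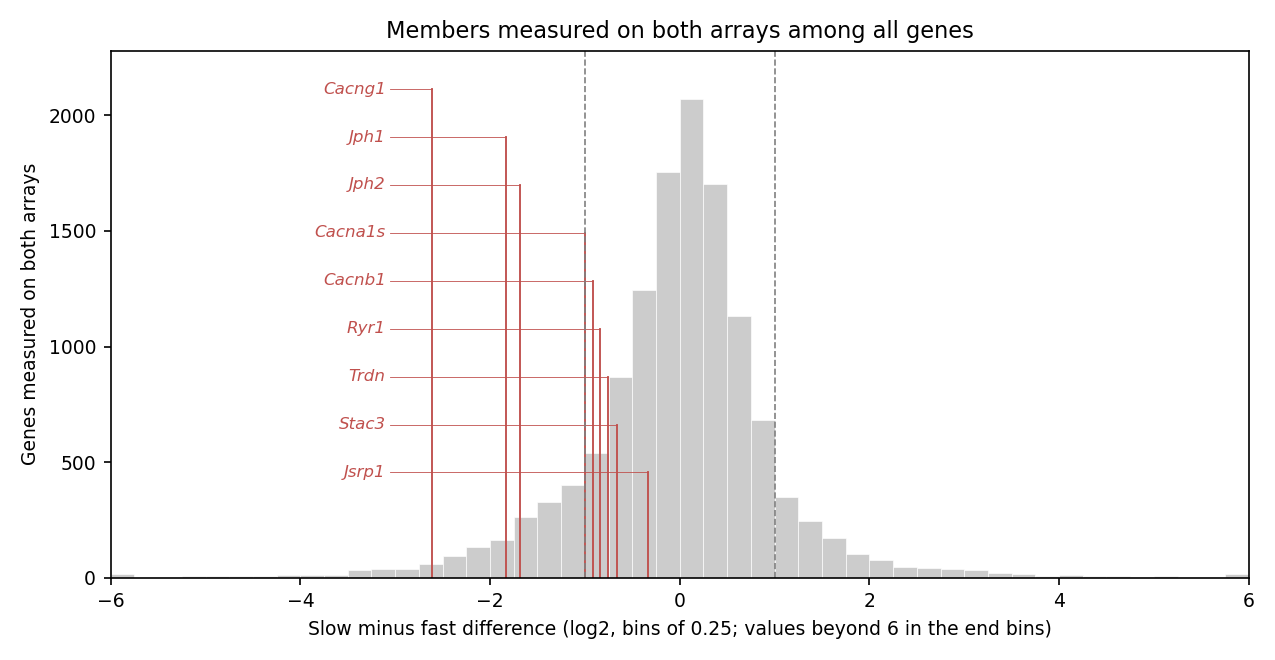
Histogram of the slow minus fast log2 difference of the 12846 genes measured on both arrays (vertical axis, number of genes per bin), with a red line for each of the 9 coupling genes measured on both and dashed lines at 2-fold. All 9 lines lie left of 0 under this scaling, from -2.61 for Cacng1 to -0.34 for Jsrp1, whose sign turned under 3 of 9 scalings.

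The wider coupling pathway was read from 4 lists of 46 genes in all. Of these, 38 were above background in either pool. The fast pool was ahead by 2-fold or more for 8, the slow pool for 4, and 26 were within 2-fold, with a median difference of -0.20. Over all genes the shares were 14.3% and 10.7%, and the lists' shares are to be read against these. Under spike-in scaling the counts were 4 on the fast side and 5 on the slow side, and they were 10 and 1 with the authors' values. Of all 14647 genes above background in either pool, 1310 and 3139 were past 2-fold under spike-in scaling, fast side first. With the authors' values 2355 and 1368 of them were. Partners of the calcium channel complex held 6 measured genes, 3 of them past 2-fold towards the fast pool and 1 towards the slow pool, against 14.3% and 10.7% of all genes. Cacnb3, another beta subunit, read 45.5 in the fast pool and 18.5 in the slow pool, a 2.63-fold excess in fast fibres. Gem, a small GTPase that inhibits calcium channels, read 1222 and 301 and was 4.36-fold higher there. Its relative Rrad went the other way, with 4439 in the fast pool and 10230 in the slow pool, 2.15-fold higher in slow fibres. Cacna1c, the cardiac and smooth muscle pore subunit, was above background in the fast pool only, at least 2.81-fold higher. The other 3 Cacna1c probes were at background in both pools.

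Cacna2d1, the alpha2-delta subunit that accompanies Cacna1s, read 7266 in the fast pool and 3928 in the slow pool, at a difference of -0.99, and was chosen for mention after its value was seen. Its other probes gave -0.82 and -1.10. Cacnb3 and Cacna1c depended on the background correction: with normexp and the 75th percentile they were within 2-fold, at -0.37 and -0.43. Cacnb3 was also within it, at -0.97, under spike-in scaling, and Rrad at 0.99 in the authors' table. Of the other members of this list, 6 were not well above background in either pool, among them Stac and Stac2, the relatives of Stac3.

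Among partners of the release channel and of the junctional reticulum, 2 of 14 measured genes passed 2-fold on the fast side and 2 on the slow side, with a median of -0.18. These counts are near the 14.3% and 10.7% of all genes. Homer1 was counted as within 2-fold by its brightest probe, at -0.18, but another of its probes gave -2.02. The calsequestrins, which bind calcium inside the store, were opposed. Casq1 was well above background in both pools and read 61691 in the fast pool and 11250.1 in the slow pool, a 5.88-fold excess in fast fibres. Casq2, the cardiac and slow form, read 1112 and 24216 and was 20.3-fold higher in slow fibres. Calm3, a calmodulin gene, read 3373 in the fast pool and 1573 in the slow pool and was 2.30-fold higher in fast fibres, though within 2-fold at -0.78 under spike-in scaling. Tmem38b, a potassium channel that balances charge during release, read 92.0 and 209 and was 2.11-fold higher in slow fibres. It passed 2-fold under 6 of 9 scalings and was at 0.74 with normexp and the 75th percentile.

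Of the genes that form the tubule and the triad, 2 of 12 measured passed 2-fold on the fast side and 1 on the slow side, with a median of -0.18. These counts too are near the 14.3% and 10.7% of all genes. Sypl2, which encodes the triad membrane protein mitsugumin 29, read 3947 in the fast pool and 1616 in the slow pool, 2.62-fold higher in fast fibres, and was at -0.97 under spike-in scaling. Ank1, whose small form tethers the reticulum to the sarcomere, read 18284 and 9803 and sat at the rule, 2.001-fold higher in fast fibres. Its other 2 probes above background gave differences of -0.87 and -0.65, and it was past 2-fold under 5 of 9 scalings. Trim72, a membrane repair protein, read 181 in the fast pool and 398 in the slow pool, 2.05-fold higher in slow fibres, and passed 2-fold under 4 of 9 scalings. Bin1, Cav3, Mtm1 and Dnm2, which shape the tubule membrane, lay between -0.29 and 0.52.

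Store-operated calcium entry, which refills the reticulum from outside, had 1 of 6 genes past 2-fold, on the fast side, near the 14.3% of all genes. Stim2, a calcium sensor of the reticulum, read 1365 in the fast pool and 197 in the slow pool, 7.43-fold higher in fast fibres, and its other probe gave -3.51. Its relative Stim1 was level at 0.10. The channel genes Orai1, Orai2 and Orai3 were at 0.07, 0.36 and 0.01, and Saraf, a brake on this entry, was at -0.41. Over the 9 scalings the median of this list ran from -0.07 to 0.46, and those of the reticulum partners and of the tubule genes also turned sign, from -0.29 to 0.25 and from -0.29 to 0.24. The median of the 9 coupling genes stayed below 0, from -1.02 to -0.49. So did that of the channel complex partners, from -1.10 to -0.57, which was -0.99 under the scaling used for the values given here.

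**Figure D4:**
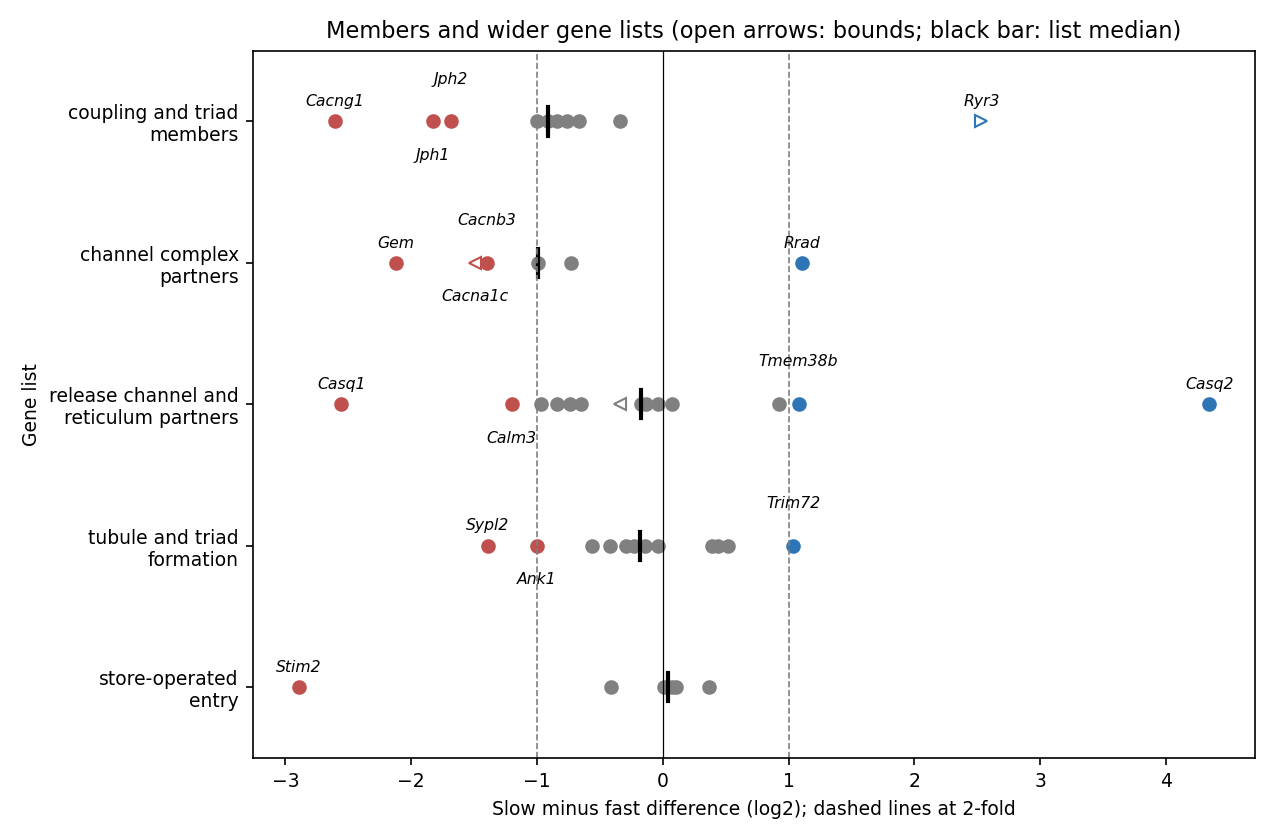
Slow minus fast log2 difference (horizontal axis) of the coupling genes and of the 4 wider lists, 1 point per gene; red and blue mark genes past 2-fold towards the fast or slow pool, grey marks genes within it, open arrows are bounds, black bars are list medians over genes measured on both arrays. The median bar of the coupling genes lies at -0.91 and that of the store-operated entry genes at 0.04.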

How the data were processed

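RNA of 1 fast and 1 slow fibre pool was hybridised to 2 one-colour Cy3 arrays. The scanner files hold intensities, from which the software subtracted background and a spatial trend, per the file headers, beside spot and background medians and other 0 or 1 flags. The submitters' processing notes name Agilent Feature Extraction 12.0.3.1. In the table that the authors deposited, intensities are linear and equal to the processed signal times 2.83 (fast) and 2.45 (slow), with medians of 30.1 and 27.1, no log and no centring. What the factors scale to is unknown.

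Control spots and 159 spots with an outlier flag were left out, repeated spots were averaged, and log2 signals were centred on the 75th percentile of all noncontrol spots. Probes were named through RefSeq transcripts of GRCm38.p6, without versions; 59.7% of probes matched. The array design refers to mm9, so no gene coordinates of that table were used. A gene with several probes was read by its brightest probe well above background. A gene above background in 1 pool only has a bound against the higher of its dim value and the lowest signal above background there. No spot was saturated. The scaling, difference and call steps were tested on simulated data in which a probe was above background in both pools or in neither. Bounds, spike-in scaling, normexp and the authors' table were not covered by that test.

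Alternatives were other scalings (median, 75th percentile over probes above background, quantile, loess with a span of 0.3, and 8 of 10 spike-in controls), normexp on median intensities with limma 3.58.1 and an offset of 50, the authors' table, the probe rule, the dim filter and a 1.5-fold rule. Python 3.11.15 was used. The genes, lists and rules were chosen with earlier results of these data known; 1 further gene was taken out of the store-operated entry list, which then held 6, and is not reported here. Named genes are the 10 genes, every gene of the 4 wider lists past 2-fold, the markers a result is read beside, and a few marked or given as values without a call.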

Additional observations from a re-analysis of the deposited data

How the results depend on the processing

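No paired analysis was possible because each group has 1 array, and no replicate could be left out. Of the 10 coupling genes, 0 passed 2-fold towards the slow pool under both normexp settings and with genes above background on both arrays only, since Ryr3 then drops out or lies within 2-fold. In fast fibres 5 of the 10 genes were past 2-fold in the authors' table, against 2355 of the 14647 genes above background in either pool. The 1.5-fold rule, applied under the 75th percentile scaling only, was passed by 8 genes. Their median difference was -0.49 under spike-in scaling, which adds 0.42 to every difference; the authors' table moved the median of all genes by -0.11. Over all genes, those past 2-fold in slow fibres numbered 3139 under spike-in scaling, 782 and 774 under normexp with the 75th percentile and with quantile normalization, 2496 with no filter on dim probes and 3095 at 1.5-fold. In fast fibres they numbered 1310 under spike-in scaling, 1002 and 989 under normexp, and 3394 at 1.5-fold. The slow side made up 42.8% of genes past 2-fold, but 70.6% under spike-in scaling. No named gene past 2-fold changed direction, though for genes above background in 1 pool only, such as Ryr3, the bound left little room for this. The causes of these shifts were not tested. Only 1 array per pool limits every value, and signal near background limits Ryr3.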

Other observations

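Probes of Asph, Speg and Homer1 disagreed, and these genes were picked after their values were seen. Asph encodes junctin, a partner of triadin, and by other transcripts an aspartyl hydroxylase. The probe for NM_133723 read 16647 in the fast pool and 11363 in the slow pool, a difference of -0.65, whereas the probe for NM_001177850 read 140 and 355, a difference of 1.24. Another Asph probe was above background in the fast pool only, at 14.2 against 5.19. Speg, a kinase needed for triad upkeep, gave -0.42 by the probe for NM_001085370, and -1.67, -0.91 and 0.68 by those for NM_001085371. The last of these read 9.91 and 17.03, close to background. Homer1, of the release channel partners, read 1024 in the fast pool and 972 in the slow pool by its brightest probe, a difference of -0.18. Another Homer1 probe read 931 and 246, a difference of -2.02, and the remaining probe gave -0.06. Probe sequences were not analysed here, so which exons each probe covers was not examined.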
